A study of Mus musculus with 6 samples.

Results

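The 8 genes described here encode enzymes that make or interconvert proline, asparagine, aspartate, alanine, glutamine and glutamate. They are Aldh18a1, Pycr1, Oat, Asns, Got1, Got2, Gpt2 and Glul, found by symbol among the 47069 genes of the count table, and all 8 were among the 14165 genes with enough counts to be tested. The group was selected on its function with the PSB-KD107 to vehicle differences of these same libraries already known, so the differences of the 8 genes are given as a description and support nothing by themselves.

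The libraries came from muscle stem cells of dystrophin-deficient mdx mice, which model Duchenne muscular dystrophy, cultured as myoblasts. The methods describe growth of such cells with serum and FGF2, and low-serum medium for differentiation. Their section on sequencing does not say which medium was used. The cells had been sorted for Itgb1 and Itga7 and against Sca-1, CD45, CD31 and CD11b. One group of 3 libraries received 10 μM PSB-KD107, a synthetic agonist of the receptor Gpr18, and the other group of 3 received vehicle (diluted DMSO). The sample records state 2 days of treatment, whereas the paper states an overnight treatment. Both groups carried the mdx mutation, and there was no wild-type group. The methods describe male mdx mice of C57BL/10 background, with their age, for the animals that received injections, and do not say whether the cells came from such mice. The study took cells from 3 mice, but no source ties a mouse to a library number. Within each group the libraries carry the numbers 1, 2 and 4 in the count table, and these names are kept below. The sample records name the treatment PSB-KD-1 and, in 1 field, call the controls untreated.

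Glutamate is the hub of this part of metabolism. Its carbon enters proline through pyrroline-5-carboxylate, and its amino group is passed to oxaloacetate and pyruvate to give aspartate and alanine. Glutamine, made from glutamate and ammonia, donates the amide group of asparagine. Several of these genes are known targets of Atf4, the transcription factor of the amino acid and integrated stress response, which binds composite elements together with C/EBP proteins. Proliferating and differentiating muscle cells draw on these amino acids for protein, nucleotide and collagen synthesis.

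The promoter windows of 4 of the enzymes are shown because 3 of them hold the core of this composite element, and Aldh18a1 because it had the largest fitted difference. The windows run from 250 bases before to 50 bases after the RefSeq transcript start, in GRCm38.p6, 5′ to 3′ on the strand of the gene. Exact matches on either strand to TGATGNAA (the core of the composite element), CACGTG (the E-box) and CCAAT (the NF-Y box) are in capitals.
Asns, chr6:7693160-7693459, minus strand: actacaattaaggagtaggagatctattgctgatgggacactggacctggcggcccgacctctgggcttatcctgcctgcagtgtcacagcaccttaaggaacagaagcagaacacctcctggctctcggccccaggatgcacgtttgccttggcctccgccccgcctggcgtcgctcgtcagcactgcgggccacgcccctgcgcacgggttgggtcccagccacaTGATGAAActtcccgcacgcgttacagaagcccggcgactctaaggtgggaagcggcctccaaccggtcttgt
Pycr1, chr11:120643699-120643998, minus strand: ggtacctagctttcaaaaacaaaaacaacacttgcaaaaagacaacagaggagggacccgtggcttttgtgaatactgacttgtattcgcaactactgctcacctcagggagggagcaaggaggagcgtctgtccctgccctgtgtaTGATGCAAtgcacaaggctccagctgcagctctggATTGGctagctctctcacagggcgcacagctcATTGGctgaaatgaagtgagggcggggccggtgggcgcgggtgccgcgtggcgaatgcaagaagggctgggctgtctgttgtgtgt
Got1, chr19:43524556-43524855, minus strand: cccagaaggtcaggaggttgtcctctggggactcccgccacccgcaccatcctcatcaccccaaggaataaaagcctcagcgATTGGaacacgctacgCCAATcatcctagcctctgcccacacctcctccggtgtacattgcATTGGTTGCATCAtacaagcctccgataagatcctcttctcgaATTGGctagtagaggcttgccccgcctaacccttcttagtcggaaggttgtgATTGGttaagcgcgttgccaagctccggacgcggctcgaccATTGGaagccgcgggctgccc
Aldh18a1, chr19:40588414-40588713, minus strand: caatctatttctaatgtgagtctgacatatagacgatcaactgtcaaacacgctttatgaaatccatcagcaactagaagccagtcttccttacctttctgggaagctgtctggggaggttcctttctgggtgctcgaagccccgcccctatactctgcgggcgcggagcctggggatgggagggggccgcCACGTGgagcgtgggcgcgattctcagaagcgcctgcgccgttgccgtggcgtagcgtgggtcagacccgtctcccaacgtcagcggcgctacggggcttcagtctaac

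All 8 genes had a window. The core TGATGNAA was found in 3 of the 8, those of Asns, Pycr1 and Got1, and in 3.97% of all 32851 windows of this length. In Asns the match TGATGAAA began 23 bases before the start. In Pycr1 the match TGATGCAA began 103 bases before the start, and in Got1 the match TTGCATCA, the same letters on the other strand, began 102 bases before it, directly after a CCAAT box read on the other strand. The stricter form TTGCATCA was held by 2 of the 8 windows, those of Pycr1 and Got1, against 0.895% of all windows. The E-box was found in 1 of the 8, that of Aldh18a1, 59 bases before the start, and in 7.15% of all windows. CCAAT was found in 4 of the 8, with 6 matches in Got1 alone and a pair each in Pycr1, Oat and Glul, against 37.4% of all windows. None of the searched letters occurred in the windows of Got2 and Gpt2. The shares describe letters in fixed windows and were not tested.

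**Figure D1:**
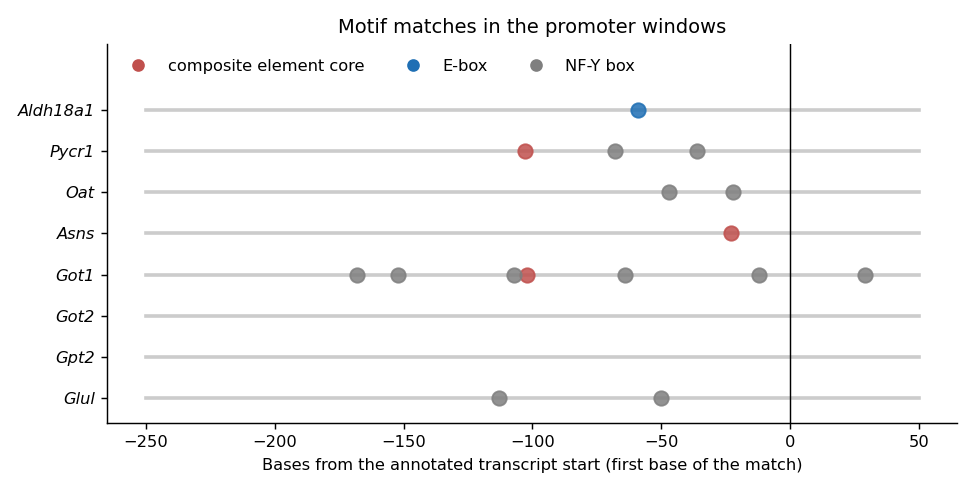
Each grey line is the promoter window of one enzyme, with distance from the annotated transcript start in bases on the x axis and the start at 0. Dots mark the first base of each match to the composite element core (red), the E-box (blue) or the NF-Y box (grey), and the red dots of Pycr1 and Got1 lie 103 and 102 bases before the start.

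The libraries held between 30917613 and 48756794 counts. Values are counts per 1000000 counts of the library (CPM) after TMM scaling, in which 3 counts correspond to between 0.0596 and 0.0962 CPM, which allows for counting error alone. The smallest count of any of the 8 genes was 190, for Pycr1 in vehicle library 4. The quasi-likelihood test of edgeR was run over all 14165 genes, with Benjamini-Hochberg adjusted p-values read at 0.05, and DESeq2 was run beside it. Myogenic markers were detected in all libraries, with Myod1 between 399 and 1060 CPM and overlapping groups. Pax7, the satellite cell factor, had 49.9 to 68.8 CPM with vehicle and 26.8 to 35.1 CPM with PSB-KD107. The groups overlapped for the other listed myogenic markers, Myf5, Des, Cdh15, Itga7, Vcam1 and Ncam1, named after their values were seen. Myf5 had 3.57 to 21.3 CPM with vehicle and 4.23 to 40.9 CPM with PSB-KD107. The listed myogenic markers summed to between 6893 and 7514 CPM with vehicle and between 6513 and 7353 CPM with PSB-KD107. Myog, the factor of myoblast differentiation, had 2042 to 2203 and 1175 to 1726 CPM. Markers of differentiated muscle were abundant too, with the embryonic myosin Myh3 between 17158 and 18255 CPM with vehicle and between 11842 and 14589 CPM with PSB-KD107, although the cells were labelled as satellite cells. The groups did not overlap for Pax7, Myog and Myh3, which were named after their values were seen. Every PSB-KD107 library lay below every vehicle library for 6.59% of all tested genes. Not all markers of differentiated muscle went this way. Ckm had 287 to 425 CPM with vehicle and 222 to 818 CPM with PSB-KD107, and Myh1 had 1422 to 2609 and 1130 to 3307 CPM. The groups also overlapped for Acta1 and Tnnt3. Mylpf had 3712 to 4637 CPM with vehicle and 3468 to 3710 CPM with PSB-KD107, so its groups nearly touched. These markers too were named after their values were seen. The 7 of 8 listed markers of differentiated muscle that were found summed to between 32402 and 37897 CPM with vehicle and between 27200 and 32515 CPM with PSB-KD107, and the part of these marker differences in the results below was not tested. Of the immune markers, Adgre1 and Ly6g were at 0 in every library and the 7 together reached at most 6.58 CPM. The 5 endothelial markers reached at most 9.12, the 5 fibro-adipogenic ones 10.6 (in PSB-KD107 library 4) and the 4 glial ones 4.09 CPM. In bulk RNA, fewer cells of a type and less RNA per cell cannot be told apart.

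Of the 8 enzymes, 6 were higher and 2 lower with PSB-KD107, with a median log2 fold change of 0.42, where the median over all tested genes was -0.00074. Over all tested genes, 49.9% were higher. In 4 of the 8, Aldh18a1, Asns, Got1 and Got2, every PSB-KD107 library lay above every vehicle library, as it did for 9.2% of all tested genes, and in none did every PSB-KD107 library lie below, as it did for 6.59%. The same 4 were higher at an unadjusted p-value under 0.05, against 6.47% of all genes. None of the 8 was lower at that level, against 2.93%. After adjustment over all genes, edgeR's quasi-likelihood test called 0 of the 8 and 0 (0%) of all 14165 genes, with 1331 genes at an unadjusted p-value under 0.05. limma-voom also called 0. DESeq2 called 3 of the 8, all higher, where it called 2.58% of the genes with an adjusted p-value higher and 0.982% lower. Since the genes were chosen with this comparison in view, nothing is read from these counts against the shares.

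**Figure D2:**
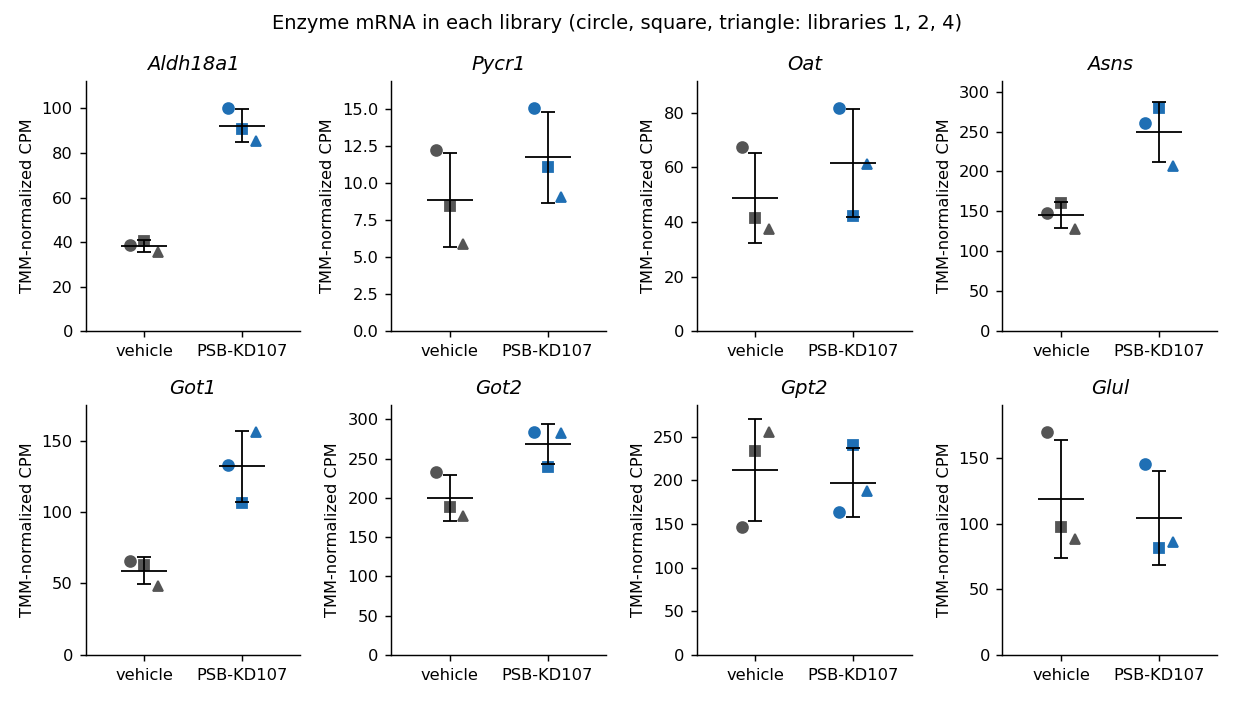
TMM-normalized CPM (y axis, from 0) of each enzyme in the vehicle (grey) and PSB-KD107 (blue) libraries, with the mean and SD in black (n = 3). The blue points lie above every grey point for Aldh18a1, Asns, Got1 and Got2, and the groups overlap for the other 4.

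Aldh18a1, at the entry into proline synthesis, had the largest fitted difference of the 8. The gene (ENSMUSG00000025007, chromosome 19 from 40550257 to 40588463 on the minus strand, in GRCm38 like all gene positions here) encodes pyrroline-5-carboxylate synthase, the mitochondrial enzyme that turns glutamate into pyrroline-5-carboxylate. It had 38.5, 40.5 and 35.4 CPM in vehicle libraries 1, 2 and 4, and 100.3, 91.0 and 85.5 CPM in the PSB-KD107 libraries of the same numbers. The groups were far apart, and the libraries within a group were closer together, relative to their mean, than for any of the other 7 enzymes. The means were 38.1 ± 2.61 and 92.3 ± 7.49 CPM (SD, n = 3), a log2 fold change of 1.27 with an SE, the standard error of the fit, of 0.11. Ordered by p-value it was number 2 of the 14165 genes (edgeR adjusted p = 0.0738, DESeq2 adjusted p = 6.1e-22).

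Pycr1 (ENSMUSG00000025140, chromosome 11 from 120635712 to 120643769, minus strand) encodes the mitochondrial reductase of the last step to proline. Its CPM was 12.2, 8.42 and 5.89 with vehicle and 15.1, 11.1 and 9.02 with PSB-KD107. The spread within each group was as wide as the difference between them, and the groups overlapped. Its means were 8.84 ± 3.18 and 11.7 ± 3.07 CPM (SD, n = 3), with a log2 fold change of 0.41 (SE 0.33, edgeR adjusted p = 0.744). It was 0.71 without vehicle library 1, 0.18 without vehicle library 4 and 0.17 without PSB-KD107 library 1.

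Oat (ENSMUSG00000030934, chromosome 7 from 132557478 to 132576398, minus strand), the ornithine aminotransferase that links ornithine to pyrroline-5-carboxylate, had 67.6, 41.6 and 37.4 CPM with vehicle. With PSB-KD107 it had 81.8, 42.1 and 61.1 CPM. Library 1 was the highest of both groups, and PSB-KD107 library 2 lay within the range of vehicle. The log2 fold change was 0.34 (SE 0.32, edgeR adjusted p = 0.785). It was 0.64, 0.22 and 0.17 without vehicle libraries 1, 2 and 4, and 0.064 and 0.54 without PSB-KD107 libraries 1 and 2.

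The other genes of proline turnover had smaller fitted differences than Aldh18a1. Of 7 symbols listed, 5 could be tested, of which 2 were higher and 3 lower. Their median log2 fold change was -0.12, and neither edgeR nor DESeq2 called any. With a library left out this median ranged from -0.33 (without PSB-KD107 library 2) to 0.15 (without PSB-KD107 library 4), and it was -0.24 without vehicle library 1, -0.055 without vehicle library 2 and -0.080 without vehicle library 4. Pycrl, the cytosolic reductase of the last step, had 25.8 ± 3.74 CPM with vehicle and 22.0 ± 2.60 CPM with PSB-KD107 (SD, n = 3), a fitted log2 difference of -0.23 (SE 0.16), and the groups overlapped. Prodh and Aldh4a1, which break proline down to glutamate and were chosen after their values were seen, had log2 fold changes of 0.64 (SE 0.53) and 0.24 (SE 0.19).

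Asns (ENSMUSG00000029752, chromosome 6 from 7675169 to 7693254, minus strand) encodes asparagine synthetase, which makes asparagine from aspartate with the amide group of glutamine. It had 147.8, 160.5 and 128.4 CPM in the vehicle libraries and 261.1, 279.6 and 207.4 CPM in the PSB-KD107 libraries. The groups did not overlap, and library 4 was the lowest of each group. The means were 145.6 ± 16.2 and 249.4 ± 37.5 CPM (SD, n = 3), a log2 fold change of 0.78 (SE 0.15, edgeR adjusted p = 0.222, DESeq2 adjusted p = 7.2e-04).

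Got1 (ENSMUSG00000025190, chromosome 19 from 43499752 to 43524605, minus strand) is the cytosolic aspartate aminotransferase. It had 65.5, 63.0 and 48.1 CPM with vehicle and 133.3, 106.6 and 156.4 CPM with PSB-KD107. Library 4 was the lowest with vehicle and the highest with PSB-KD107. The means were 58.9 ± 9.39 and 132.1 ± 24.9 CPM (SD, n = 3), a log2 fold change of 1.17 (SE 0.19, edgeR adjusted p = 0.184, DESeq2 adjusted p = 2.5e-05).

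Got2 (ENSMUSG00000031672, chromosome 8 from 95864134 to 95888547, minus strand), the mitochondrial form, differed by less. Its CPM was 232.7, 188.4 and 177.2 with vehicle and 284.5, 239.9 and 282.5 with PSB-KD107. The lowest PSB-KD107 library was close to the highest vehicle library. The log2 fold change was 0.43 (SE 0.14), and it was called neither by edgeR (adjusted p = 0.423) nor by DESeq2 (adjusted p = 0.177). Without vehicle library 1, DESeq2 called it (adjusted p = 0.0069). The pseudogene Got2-ps1, which could share reads with Got2, had between 17 and 63 counts where Got2 had between 5713 and 14317, and an exon of Got2 overlaps Gm45760 on the other strand.

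**Figure D3:**
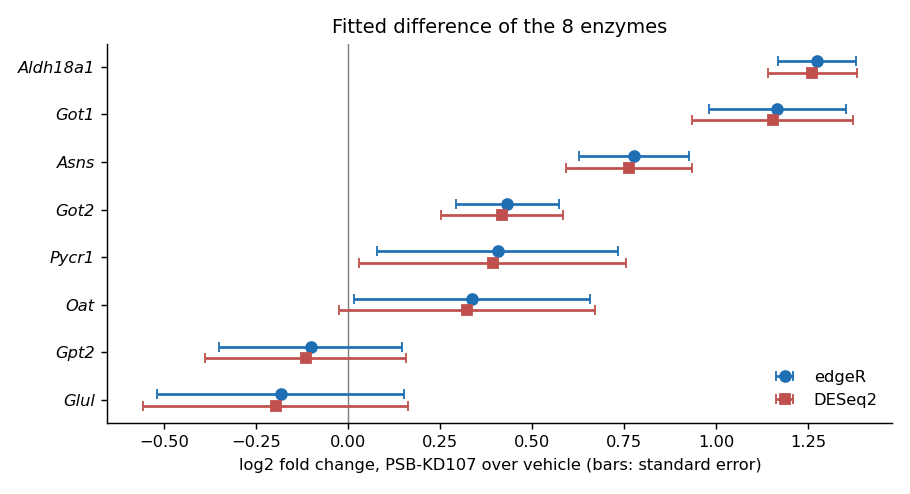
Log2 fold change of PSB-KD107 over vehicle (x axis) for each enzyme, with bars for the standard error, from edgeR (blue) and DESeq2 (red). The enzymes run from Aldh18a1 at 1.27 to Glul at -0.18 in edgeR.

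Per length, the cytosolic form took a larger share of the aspartate aminotransferase mRNA with PSB-KD107. Got1 made up 34.8%, 38.8% and 34.0% of the summed CPM per kb of Got1 and Got2 in the vehicle libraries, and 47.1%, 45.8% and 51.3% in the PSB-KD107 libraries. The groups did not overlap, and their means were 35.9 ± 2.58% and 48.0 ± 2.87% (SD, n = 3). With the longest annotated transcript as length, a choice made after seeing the data, the means were 26.6 ± 2.20% and 37.5 ± 2.70% (SD, n = 3). Another length scales the ratio of Got1 to Got2 alike in every library. It can therefore change the size of the shares but not the order of the libraries or their overlap. Gpt2 made up at least 92.2% of Gpt and Gpt2 together in every library.

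**Figure D4:**
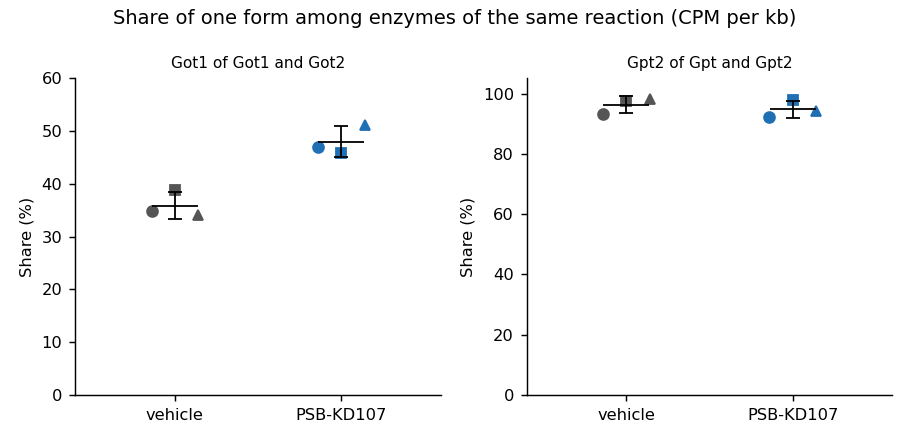
Share in percent (y axis, from 0) of Got1 in Got1 plus Got2 and of Gpt2 in Gpt plus Gpt2, computed from CPM per kb in each vehicle (grey) and PSB-KD107 (blue) library, with mean and SD in black (n = 3). The Got1 share lies between 34.0% and 38.8% with vehicle and between 45.8% and 51.3% with PSB-KD107.

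Both aminotransferases belong to the malate-aspartate shuttle, which carries reducing equivalents into mitochondria. Of 11 other genes listed for the shuttle and for mitochondrial carriers, 10 could be tested, of which 9 were higher, against 49.9% of all tested genes. Their median log2 fold change was 0.14. No gene of this list was called by edgeR or DESeq2. Slc25a12, the aspartate-glutamate carrier of muscle, had 80.4 ± 13.4 CPM with vehicle and 114.8 ± 28.5 CPM with PSB-KD107 (SD, n = 3), a log2 fold change of 0.51 (SE 0.21). Mdh1, the cytosolic malate dehydrogenase, had 238.7 ± 55.5 and 348.7 ± 87.1 CPM (SD, n = 3), a log2 fold change of 0.55 (SE 0.25), and the groups overlapped for both.

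In the list of asparagine and aspartate use, 10 of 14 symbols could be tested and 9 were higher, against 49.9% of all tested genes. Their median log2 fold change was 0.34, and neither tool called any. The smallest p-values were those of Adssl1, the muscle adenylosuccinate synthase, which consumes aspartate, and of Asl, the argininosuccinate lyase. Adssl1 had 91.1 ± 29.3 CPM with vehicle and 195.5 ± 96.2 CPM with PSB-KD107 (SD, n = 3), a log2 fold change of 1.10 (SE 0.41). Asl had a log2 fold change of 0.88 (SE 0.41), and the groups overlapped for both genes. This median moved with single libraries, from 0.21 without PSB-KD107 library 4 to 0.75 without vehicle library 1.

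Gpt2 (ENSMUSG00000031700, chromosome 8 from 85492576 to 85527560 on the plus strand) encodes the mitochondrial alanine aminotransferase, which passes the amino group of glutamate to pyruvate. It had 146.0, 233.4 and 255.9 CPM with vehicle and 163.4, 241.1 and 187.6 CPM with PSB-KD107. Library 1 was the lowest in both groups, and the groups overlapped. The log2 fold change was -0.10 (SE 0.25, edgeR adjusted p = 0.917), and its sign turned without vehicle library 4 (0.06) and without PSB-KD107 library 1 (0.0021).

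Glul (ENSMUSG00000026473, chromosome 1 from 153899944 to 153909723, plus strand) encodes glutamine synthetase. It had 170.0, 97.5 and 88.3 CPM with vehicle and 145.6, 81.7 and 85.9 CPM with PSB-KD107. Library 1 stood well above the others in both groups, and the groups overlapped. The log2 fold change was -0.18 (SE 0.34, edgeR adjusted p = 0.889), and it was 0.16 without vehicle library 1. Exons of Glul overlap Teddm2 on the other strand, which had at most 38 counts, and the strand setting of the counting is not given in the sources used here. The median over the 8 enzymes was 0.67 without vehicle library 1, 0.27 without vehicle library 4 and 0.27 without PSB-KD107 library 1.

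In the list of glutamine and glutamate use, 20 of 28 symbols could be tested. Of these 20, 14 were higher and 6 lower, against 49.9% higher over all tested genes. The median log2 fold change was 0.19. It was 0.087 without vehicle library 2, 0.0995 without vehicle library 4, 0.066 without PSB-KD107 library 1 and 0.11 without PSB-KD107 library 4. edgeR called 0 and DESeq2 called 4, all higher, among them Psph, Phgdh and Bcat1. Of all genes with an adjusted p-value, DESeq2 called 2.58% higher and 0.982% lower. Psph and Phgdh, enzymes of serine synthesis whose pathway takes an amino group from glutamate, had the smallest p-values. Psph had 9.93 ± 0.43 CPM with vehicle and 29.3 ± 5.60 CPM with PSB-KD107, and Phgdh had 59.4 ± 13.2 and 135.1 ± 9.95 CPM (SD, n = 3), with log2 fold changes of 1.56 and 1.19 (SE 0.17 and 0.18). Bcat1, a branched-chain aminotransferase that uses glutamate, was named after its values were seen. It had 1.05 ± 1.06 and 9.52 ± 9.80 CPM (SD, n = 3) and so varied about as much as its mean. In PSB-KD107 libraries 1, 2 and 4 it had 20.8, 3.37 and 4.37 CPM. Psat1, the transaminase of serine synthesis, and the glutamate dehydrogenase Glud1, both chosen after their values were seen, had log2 fold changes of 0.24 and 0.21 (SE 0.29 and 0.27).

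Ornithine connects Oat with arginine and the polyamines. Of 17 genes listed here, 12 could be tested, 8 of them higher and 4 lower, against 49.9% higher over all tested genes. The median log2 fold change was 0.19, which was 0.086 without PSB-KD107 library 1 and -0.042 without PSB-KD107 library 4. edgeR called none and DESeq2 called 1 in each direction, against 2.58% higher and 0.982% lower of all genes with an adjusted p-value. Sat1, which acetylates polyamines for export or breakdown, had 26.02 ± 0.64 CPM with vehicle and 50.5 ± 12.7 CPM with PSB-KD107 (SD, n = 3), a log2 fold change of 0.96 (SE 0.19, edgeR adjusted p = 0.228, DESeq2 adjusted p = 0.0013). Gatm, which makes the creatine precursor from arginine and releases ornithine, had 476.8 ± 70.2 and 290.5 ± 59.2 CPM (SD, n = 3), a log2 fold change of -0.71 (SE 0.19, edgeR adjusted p = 0.326, DESeq2 adjusted p = 0.0165). Odc1, the first enzyme of polyamine synthesis, was chosen after its values were seen and had a log2 fold change of 0.35 (SE 0.23), with overlapping groups.

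Atf4 and the genes around it were listed because several of the 8 enzymes are known Atf4 targets. The list was also chosen with earlier results of these data known, so its values are a description. All 14 genes of this list could be tested, and 12 were higher and 2 lower, against 49.9% higher over all genes. The median log2 fold change was 0.65. The genes counted as higher include Eif2ak2, named after its values were seen, with 15.6, 12.6 and 152.7 CPM in PSB-KD107 libraries 1, 2 and 4. edgeR called 0. DESeq2 called 5, all higher, namely Atf5, Trib3, Ddit3, Cebpb and Cebpg, the last 3 named after their values were seen. Of the genes with an adjusted p-value, DESeq2 called 2.58% higher. Trib3, a pseudokinase induced by Atf4, had 3.17 ± 1.10 CPM with vehicle and 42.6 ± 12.0 CPM with PSB-KD107 (SD, n = 3), a log2 fold change of 3.75 (SE 0.34, edgeR adjusted p = 0.0738). Atf5, a transcription factor of the same response, had 61.2 ± 9.42 and 186.9 ± 15.7 CPM (SD, n = 3). Atf4 itself, also chosen after its values were seen, had 238.0 ± 18.2 and 385.0 ± 94.8 CPM (SD, n = 3), a log2 fold change of 0.69 (SE 0.20), its groups did not overlap, and neither tool called it (edgeR adjusted p = 0.379, DESeq2 adjusted p = 0.0617). The activity of the protein is not measured by RNA-seq. A link between this list and the enzymes was not tested.

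Levels of different genes were compared per kb of annotated exon in the vehicle libraries. Asns was highest, with 53.2 ± 5.91 CPM per kb, followed by Got2 with 41.3 ± 6.08, Gpt2 with 37.5 ± 10.3 and Glul with 35.7 ± 13.5 CPM per kb (SD, n = 3). Each of these neighbours in the order overlapped in its range over the libraries. Got1 with 23.2 ± 3.70 and Oat with 20.7 ± 6.94 CPM per kb formed the next overlapping pair (SD, n = 3). Below them, without overlap, came Aldh18a1 with 9.37 ± 0.64 and Pycr1 with 2.25 ± 0.81 CPM per kb (SD, n = 3). The order depended in part on the length used. With the longest annotated transcript in place of all exons, Got2 (78.8 CPM per kb) came before Asns (72.2 CPM per kb), and the other 6 kept their places.

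**Figure D5:**
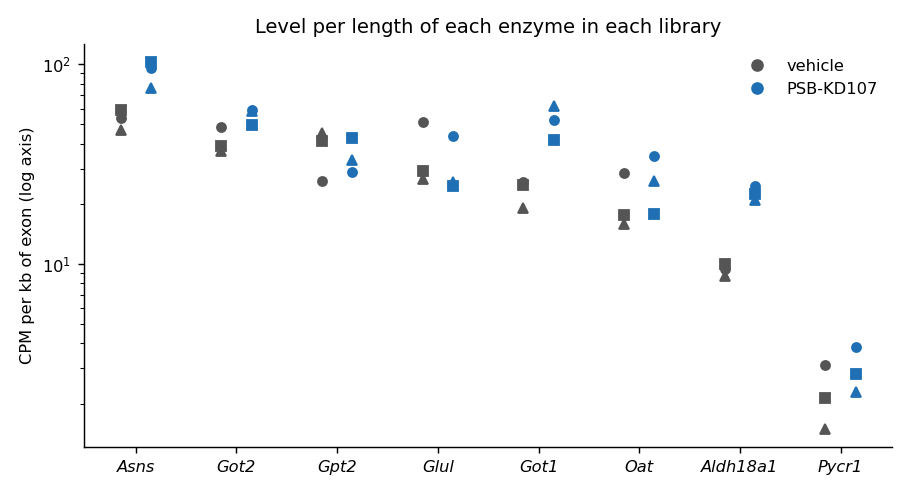
CPM per kb of annotated exon on a log axis for each enzyme in each vehicle (grey) and PSB-KD107 (blue) library, in the order of the vehicle means, with circles, squares and triangles for libraries 1, 2 and 4. Vehicle means run from 53.2 for Asns to 2.25 for Pycr1.

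With PSB-KD107 the level of Got1 per length, 52.0 ± 9.82 CPM per kb, stood beside 55.8 ± 5.23 for Got2, and Aldh18a1 reached 22.7 ± 1.84 CPM per kb, while Pycr1 stayed the lowest at 2.98 ± 0.78 CPM per kb (SD, n = 3). These are levels. The ranges of Got1 and Got2 overlapped with summed exon length but not with the longest transcript, where Got1 lay between 51.8 and 76.0 and Got2 between 94.8 and 112.5 CPM per kb.

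The genes whose profile over the 6 libraries was closest to that of each enzyme were found among 8909 other genes with a mean of at least 10 CPM, by the root mean square difference in log2 units after subtraction of the vehicle mean. For Aldh18a1 these were the amino acid transporter Slc1a4 (0.14), the serine synthesis enzyme Phgdh (0.16) and Cox8b (0.16). Nearest to Asns were Acot13, E430025E21Rik and Aig1, at 0.11 to 0.13, and nearest to Got1 were Maff (0.08), Ostm1 (0.12) and Rai14 (0.13). For Got2 they were Slc25a4, Ppip5k1 and Etl4, all at 0.05, and for Pycr1 St8sia4, Scx and Hpcal1, at 0.11 to 0.14. The closest to Oat were Mettl3, Dad1 and 6430548M08Rik, at 0.06 to 0.07, to Gpt2 Dennd4c, Focad and Ep300, at 0.04, and to Glul Hn1l, Prkar1a and Gpr180, at 0.10 to 0.12. Close profiles are a description of these 6 libraries.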

How the data were processed

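Polyadenylated RNA was sequenced by the authors from paired-end directional libraries and aligned with STAR to mm10 (GRCm38). They deposited 1 table of raw gene counts that had not been normalized. The counting program, annotation and strand setting are not given in the sources used here. Groups came from the sample titles and the column names, and a column numbered 4 was used for its group without being tied to a sample record. The 8 genes and the gene lists were chosen with earlier results of these data known.

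Genes were filtered with filterByExpr, scaled with TMM and tested for PSB-KD107 against vehicle in all 6 libraries with edgeR's quasi-likelihood test (edgeR 4.0.16, R 4.3.3). The standard error was taken as the log2 fold change over the root of F. Benjamini-Hochberg adjustment covered 14165 genes. DESeq2 1.42.0 (genes left without an adjusted p-value stayed uncalled) and limma 3.58.1 (voom) were run on the same genes. Nothing ties the libraries to separate cultures beyond the statement of 3 mice, so p-values measure the spread between libraries. Exon lengths and coordinates came from GENCODE M21 (GRCm38), and promoter windows from RefSeq (GRCm38.p6). Scripts were tested on simulated counts.

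Named were the 8 enzymes, every list gene past the threshold or, with fewer than 2, the 2 with the smallest p-values, the 3 closest profiles of each enzyme, and genes stated as chosen after their values were seen. The planned comparison of protein sequences was not run. Alternatives were RLE scaling, no low-count filter, DESeq2, limma-voom, a block by library number, leaving out each library in turn, the longest transcript as length and a stricter motif. The 4 libraries numbered 1 and 2 with no block, and the longest transcript for shares and PSB-KD107 levels, were added after seeing the data. Results of 2 list genes are not reported here.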

Additional observations from a re-analysis of the deposited data

How the results depend on the processing

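The 6 enzymes that were higher in the edgeR fit above, Aldh18a1, Asns, Got1, Got2, Pycr1 and Oat, stayed above 0 in all 120 values that the alternatives gave. The alternatives reuse the same 6 libraries, so these values are not independent and do not show that Pycr1 or Oat was raised. With a library left out, Pycr1 still ranged from 0.17 to 0.71 and Oat from 0.064 to 0.64 in edgeR. The DESeq2 calls of Aldh18a1, Asns and Got1 were kept without each library in turn (highest adjusted p 0.0431, for Asns), and Got2 was also called without vehicle library 1 (adjusted p = 0.0069). Leaving out a library, edgeR called 0 genes each time and DESeq2 between 184 (without vehicle library 2) and 820 (without PSB-KD107 library 2), with 187 without vehicle library 4 and 295 without PSB-KD107 library 1. The member median ranged from 0.27 to 0.67, and the medians of the lists ranged from 0.21 to 0.75 for asparagine and aspartate use, from 0.066 to 0.25 for glutamine and glutamate use, and from -0.042 to 0.25 for ornithine, arginine and polyamines. Gpt2 ranged from -0.32 to 0.055 in edgeR and from -0.32 to 0.042 in DESeq2, and Glul from -0.52 to 0.16 in edgeR and from -0.51 to 0.16 in DESeq2.

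Without the low-count filter, edgeR called 8 genes, of which 1 was an enzyme of the 8, Aldh18a1 (adjusted p = 0.0400). DESeq2 called 482 genes and 3 of the enzymes, and limma-voom moved the median of asparagine and aspartate use to 0.48. The causes were not tested.

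Same-numbered libraries deviated together for numbers 1 and 2 but not 4 (correlations across 14165 genes 0.63, 0.52 and -0.13, against -0.70 to 0.64 over the 6 other combinations, the highest being vehicle library 4 with PSB-KD107 library 2), so the numbers were not taken to pair the libraries. A replicate block over all 6 libraries called 0 genes in edgeR and 633 in DESeq2, with the same 3 enzymes called by DESeq2. With the block on the 4 libraries numbered 1 and 2, which leaves 1 degree of freedom, edgeR called 2456 genes and 5 of the enzymes. The share of the genes tested in this fit is not given here, so nothing is read from the 5. Aldh18a1, Asns, Got1 and Got2 were called higher, and Glul was called lower (log2 fold change -0.24). In this fit the median was 0.24 for asparagine and aspartate use and -0.12 for ornithine, arginine and polyamines, and Gpt2 was at 0.10. The same 4 libraries with no block gave 0 calls, 0.23 and -0.12 for these lists and 0.091 for Gpt2. At this depth counting error is small for all 8 enzymes, and the 3 libraries per group limit the precision.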
